A study of Mus musculus with 12 samples.

Results

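The step from 2 to 20 U/ml interferon gamma (IFNγ) in mouse macrophages was examined to ask which genes needed the higher dose. All groups were bone-marrow-derived macrophages of C57BL6 mice, differentiated over 10 days with interleukin-3 and L-929 conditioned medium, which supplies colony-stimulating factor 1. The cells were left untreated or received 0.2, 2 or 20 U/ml IFNγ for 8 h, and the labels list 3 RNA-seq libraries per group, so 6 of the 12 libraries belong to the step. For the top dose the label states U with no volume, which was taken as U/ml. The labels do not say whether the 3 libraries of a group came from separate animals or cultures. The deposited table holds 1 value per gene and group in FPKM, a read level per length of transcript and size of library, so no difference here has a replicate check and none was tested.

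Members were the entries that averaged 1 FPKM or more across the 4 groups and had no value of 0, which left 11580 of 46729 entries. The step ratio of an entry was log2 of its FPKM plus 1 at 20 U/ml over its FPKM plus 1 at 2 U/ml, a scale that understates differences of low genes. An entry counted as higher or lower at 20 U/ml when this ratio was at least 1 in size, a 2-fold difference. Entries that merge overlapping genes made up 695 of the 11580, and reads within a merged entry cannot be assigned to 1 gene. In these bulk samples, fewer cells of a type and less RNA per cell cannot be told apart either.

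IFNγ is made by T cells and natural killer cells and is the main cytokine that arms macrophages against intracellular microbes and raises antigen presentation. It binds a receptor of the IFNGR1 and IFNGR2 chains and signals through the kinases JAK1 and JAK2. Promoters of its target genes often hold the gamma-activated site (GAS) or the interferon-stimulated response element (ISRE), and IRF1 binds the latter. Early targets include transcription factors such as IRF1 and inhibitors such as SOCS1, which acts back on the receptor's kinases.

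The macrophage markers Csf1r, Adgre1 and Cd68 were abundant in every group. Csf1r, the receptor of colony-stimulating factor 1, was at 349 FPKM untreated and 340.2, 416 and 418 FPKM with 0.2, 2 and 20 U/ml. These were picked from 15 macrophage markers, of which 13 entries were used, with a median step ratio of 0.01. Fcgr1 was the 1 higher, at 1.23, and Cx3cr1 the 1 lower, at -1.42. Lyz2, also on the list, was left out for a value of 0. Of the markers of other cells, all 10 of mast cells and basophils and all 8 of erythroid cells were under 1 FPKM in every group. The same held for 12 of 13 T and NK cell, 5 of 8 B cell, 8 of 13 neutrophil and 8 of 12 stromal and endothelial markers. Summed over each list, levels at 2 and at 20 U/ml were 1.94 and 1.31 FPKM for T and NK cells, 13.8 and 12.9 for B cells, 46.6 and 57.5 for neutrophils and 60.4 and 42.9 for stromal and endothelial cells. For osteoclasts the sums were 88.5 and 60.4 FPKM, with 1 of 8 markers under 1 FPKM in every group and none past the size rule. Dendritic cell markers summed to 555 and 1315 FPKM, chiefly from Bst2, an antiviral gene that interferons induce in many cells. Bst2 and the merged entry of Clec1b and Clec9a were the 2 dendritic cell markers used, and both were higher, while 6 of the 9 were under 1 FPKM in every group. The part of other cells in the results below was not tested.

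Some entries put the groups at 0.2 and 20 U/ml apart from untreated cells and 2 U/ml, the groups on either side of the step included. Lars2, a mitochondrial leucyl-tRNA synthetase, was at 228 FPKM untreated and 1499.7, 372 and 2095 FPKM with 0.2, 2 and 20 U/ml. Rmrp, the RNA of a ribonuclease, was at 29.9 FPKM untreated and 162, 50.3 and 224 FPKM with 0.2, 2 and 20 U/ml. Ctsb, a cathepsin, was listed at 0 in untreated cells and at 2 U/ml, and at 2959 FPKM with 0.2 and 2093 with 20 U/ml. These 3 were chosen after their values were seen, and the part of such a difference between groups in the results was not tested.

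Promoters are shown for 6 genes that were at least 2-fold higher at 20 than at 2 U/ml, because they hold the letters of an ISRE or a GAS close to the gene's start. Each is the 250 bases before the start in RefSeq (GRCm38.p6), printed 5′ to 3′ on the gene's own strand, with matches in capitals. The letters searched on both strands were GAAA, any 2 bases and GAAA for the ISRE, and TTC, any 3 bases and GAA for the GAS. Cxcl10, at chr5:92348890-92349139 on the minus strand, Isg15, at chr4:156200819-156201068 on the minus strand, and Ifit1, at chr19:34640639-34640888 on the plus strand, hold ISRE letters. So do Socs1, at chr16:10785537-10785786 on the minus strand, and Gbp2, at chr3:142620413-142620662 on the plus strand. Serpina3g, at chr12:104235897-104236146 on the plus strand, holds GAS letters.
Cxcl10: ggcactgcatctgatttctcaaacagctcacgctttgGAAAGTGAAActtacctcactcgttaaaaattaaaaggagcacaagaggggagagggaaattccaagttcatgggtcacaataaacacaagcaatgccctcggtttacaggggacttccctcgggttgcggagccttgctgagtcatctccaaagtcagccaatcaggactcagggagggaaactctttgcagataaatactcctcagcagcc
Isg15: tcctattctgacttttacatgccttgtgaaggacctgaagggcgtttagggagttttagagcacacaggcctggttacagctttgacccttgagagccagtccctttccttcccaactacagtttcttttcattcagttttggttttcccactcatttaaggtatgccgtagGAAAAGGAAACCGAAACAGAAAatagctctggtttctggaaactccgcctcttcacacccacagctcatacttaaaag
Ifit1: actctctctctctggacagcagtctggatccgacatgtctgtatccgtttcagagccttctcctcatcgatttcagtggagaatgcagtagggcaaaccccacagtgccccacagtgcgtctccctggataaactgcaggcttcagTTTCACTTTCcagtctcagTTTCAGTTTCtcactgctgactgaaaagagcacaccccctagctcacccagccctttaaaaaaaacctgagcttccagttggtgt
Socs1: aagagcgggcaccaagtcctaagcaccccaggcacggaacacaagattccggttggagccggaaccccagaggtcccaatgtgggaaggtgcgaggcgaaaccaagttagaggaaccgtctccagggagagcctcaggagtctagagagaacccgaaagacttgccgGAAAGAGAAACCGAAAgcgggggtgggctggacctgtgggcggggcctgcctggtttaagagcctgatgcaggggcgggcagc
Gbp2: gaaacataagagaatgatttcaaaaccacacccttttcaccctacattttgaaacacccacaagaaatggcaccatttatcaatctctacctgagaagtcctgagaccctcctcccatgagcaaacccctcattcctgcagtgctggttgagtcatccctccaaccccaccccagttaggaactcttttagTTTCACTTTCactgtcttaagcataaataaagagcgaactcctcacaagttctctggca
Serpina3g: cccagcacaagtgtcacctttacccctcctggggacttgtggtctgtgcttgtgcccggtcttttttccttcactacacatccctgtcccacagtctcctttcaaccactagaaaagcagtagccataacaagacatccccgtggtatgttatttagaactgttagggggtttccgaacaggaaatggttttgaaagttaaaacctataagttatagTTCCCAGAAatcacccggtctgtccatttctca

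Counting from -1 for the last base before the start, the ISRE letters of Cxcl10 ran from -213 to -204. Isg15 held 3 overlapping matches from -78 to -57, and Socs1 held 2 overlapping matches from -83 to -68. Ifit1 held 2 separate matches, from -104 to -95 and from -85 to -76. The match of Gbp2 ran from -59 to -50, and the GAS letters of Serpina3g from -33 to -25. A match describes the letters only and is not evidence of binding.

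Of the 11580 entries, 336 were higher at 20 than at 2 U/ml, which is 2.9%, and 128 were lower, which is 1.11%. The median step ratio of all entries was 0.02. At least 4-fold higher were 81 entries, or 0.699%. Long is used here for every entry not known to be under 200 nt, which takes in entries with no length in the annotation. Among long single-gene entries, the largest ratios were those of chemokine, serpin and antiviral genes, and the lower entries included Gas6, cell division genes and sterol synthesis genes. Of the 15 entries at least 8-fold higher, 6 were short RNAs, such as Vaultrc5 at 4.50, 2 were merged and 7 were long single genes. Among the 336 higher entries, 37 were short RNAs under 200 nt and 31 were merged entries, against 195 and 695 of all 11580 used. Just inside the size rule stood H2-Ea-ps and Cers6, and just outside it Tor3a, which print alike at 1.00.

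**Figure D1:**
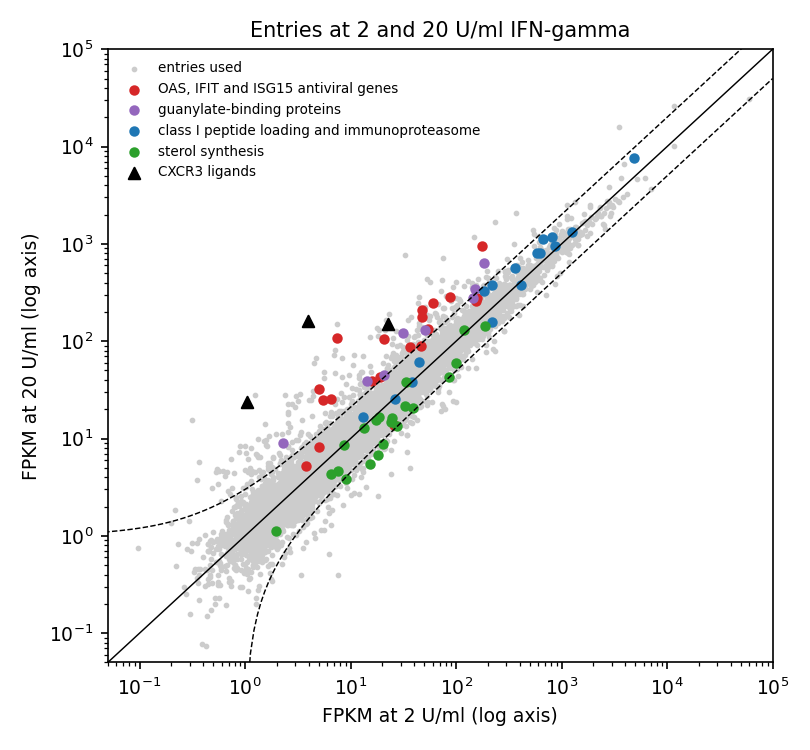
FPKM at 2 U/ml (x, log axis) against FPKM at 20 U/ml (y, log axis) for the 11580 entries used, 1 deposited value per group and entry. The solid line marks equal values and the dashed lines the 2-fold size rule. Marked points are members of the named lists, of which the CXCR3 ligand Cxcl9 sits farthest above the solid line.

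The chemokines that call T cells through the receptor CXCR3 had the largest median step of any list, at 3.59, and all 3 were higher. Cxcl9, on chromosome 5 from 92321347 to 92328079, was at 1.04 FPKM untreated and 1.28, 3.96 and 163 FPKM with 0.2, 2 and 20 U/ml. Its step ratio of 5.04 was the largest among all 11580 entries, and 1.81% of the difference from untreated cells to 20 U/ml was present at 2 U/ml. Cxcl10, whose promoter is printed above, was at 2.88 FPKM untreated and 4.54, 22.5 and 151 FPKM with 0.2, 2 and 20 U/ml, a step ratio of 2.70. Cxcl11, annotated in this strain's reference as a polymorphic pseudogene, was at 0.177 FPKM untreated and 0.407, 1.05 and 23.8 FPKM with 0.2, 2 and 20 U/ml, a step ratio of 3.59. The levels of all 3 were in the order of the doses, and the last step was the largest of each.

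Of 13 other chemokines measured, 5 were higher and 1 lower, with a median step ratio of -0.12. Ccl5, which attracts T cells and monocytes, was at 1.57 FPKM untreated and 1.88, 7.36 and 106 FPKM with 0.2, 2 and 20 U/ml, a ratio of 3.67. Ccl12 and Ccl8, which attract monocytes, had ratios of 2.81 and 2.77, with Ccl12 at 56.6 FPKM at 2 U/ml and 404 at 20 U/ml. Ccl2, the best-known monocyte attractant, was abundant without IFNγ at 117 FPKM untreated and 135, 193 and 458 FPKM with 0.2, 2 and 20 U/ml, a ratio of 1.25. The opposite was seen for Cxcl2, which attracts neutrophils, at 4.73 FPKM untreated and 3.53, 3.07 and 1.03 FPKM with 0.2, 2 and 20 U/ml, a ratio of -1.01. The macrophage chemokines Ccl3 and Ccl9 had ratios of -0.86 and -0.69, short of the size rule.

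**Figure D2:**
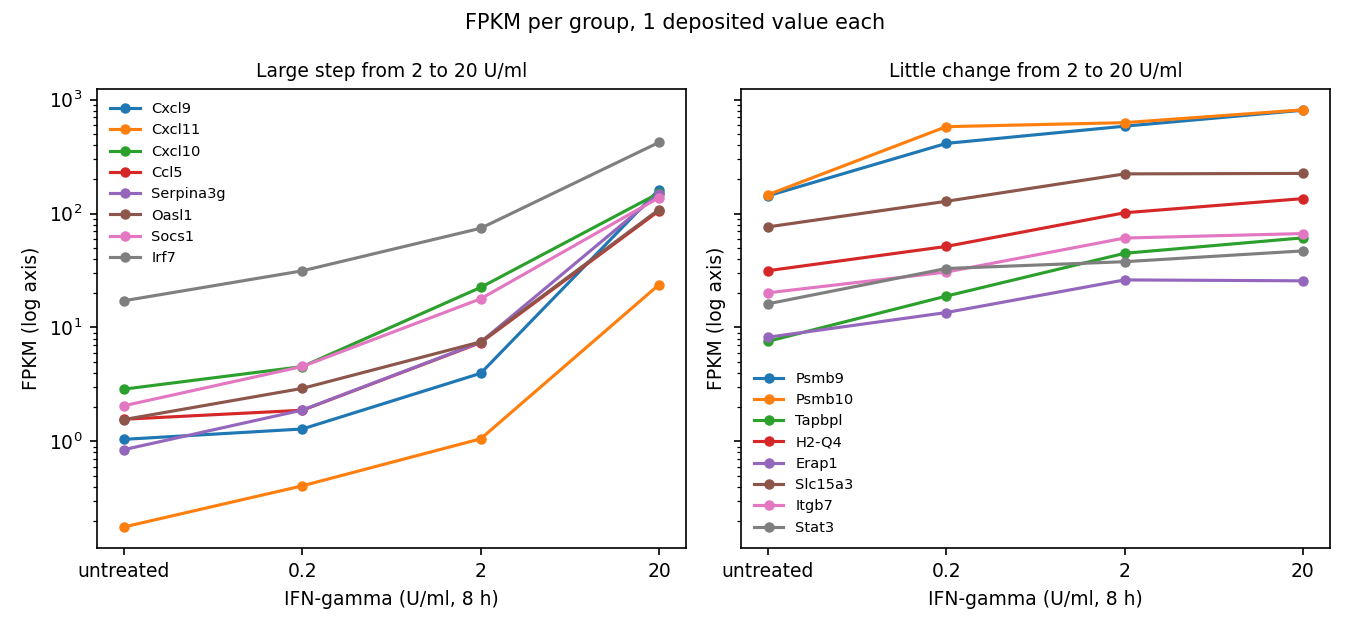
FPKM (y, log axis) in untreated cells and at 0.2, 2 and 20 U/ml (x), 1 deposited value per group. In the left panel most of the difference of Cxcl9, Ccl5, Serpina3g, Oasl1, Socs1 and Irf7 lies between 2 and 20 U/ml. In the right panel Psmb9, Psmb10, Slc15a3, Itgb7 and the other genes have step ratios under 0.5 in size.

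Antiviral genes were the most numerous of the higher list members. Of 20 OAS, IFIT and ISG15 genes, 14 were higher and 0 lower, with a median ratio of 1.5. Oasl1, which restrains translation of Irf7, was at 1.55 FPKM untreated and 2.92, 7.48 and 109 FPKM with 0.2, 2 and 20 U/ml, a ratio of 3.69. Isg15, the ubiquitin-like modifier, was at 29.4 FPKM untreated and 62.6, 174 and 942 FPKM with 0.2, 2 and 20 U/ml, a ratio of 2.43. Ifit1, Ifit2 and Ifit3, which bind foreign RNA or scaffold its binding, had ratios of 1.87, 2.14 and 2.01. Of 24 other antiviral effectors, 16 were higher, with a median ratio of 1.06. Rsad2, which encodes viperin, was at 8.25 FPKM untreated and 16.8, 43.6 and 247 FPKM with 0.2, 2 and 20 U/ml, a ratio of 2.48. Mx1, a dynamin-like GTPase, was at 1.54 FPKM untreated and 3.08, 13.2 and 70.96 FPKM with 0.2, 2 and 20 U/ml, a ratio of 2.34.

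Of 19 sensors of nucleic acids, 12 were higher, with a median ratio of 1.35. Ifi205, of the PYHIN family, was at 0.190 FPKM untreated and 0.509, 1.54 and 14.2 FPKM with 0.2, 2 and 20 U/ml, a ratio of 2.58. Tlr9, the endosomal receptor for unmethylated DNA, had a ratio of 1.95, and Zbp1, a sensor of Z-form nucleic acid, one of 1.42. Ddx58, which encodes the RNA sensor RIG-I, was at 14.6 FPKM untreated and 28.4, 19.6 and 45.3 FPKM with 0.2, 2 and 20 U/ml, and at 2 U/ml it was below its value at 0.2 U/ml.

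The interferon-induced GTPases were mostly higher at the step. At 2 U/ml a median of 35.8% of the difference was present for guanylate-binding proteins and 29.1% for immunity-related GTPases. Of 8 guanylate-binding protein entries, which attack vacuoles of intracellular microbes, 7 were higher, with a median ratio of 1.38. Their median ratio from 0.2 to 2 U/ml was 2.34, above that of the last step. Gbp5 was at 2.09 FPKM untreated and 5.06, 31.1 and 123 FPKM with 0.2, 2 and 20 U/ml, a ratio of 1.95. Gbp2, whose promoter is printed above, was at 8.13 FPKM untreated and 20.8, 150.3 and 343 FPKM with 0.2, 2 and 20 U/ml, a ratio of 1.19. The immunity-related GTPases gave 9 higher of 13, and their median ratio was 1.40 at the last step against 1.23 from 0.2 to 2 U/ml. Members of both families have near-identical copies, and the sources used here do not say how reads were split between them.

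Antigen presentation genes split by class, with class II past the size rule and most of class I short of it. Of 8 class II entries, which present peptides to CD4 T cells, 7 were higher, with a median ratio of 1.25 at the last step and 1.86 at the step before. H2-Ab1, a class II beta chain, was at 6.25 FPKM untreated and 14.2, 56.8 and 181 FPKM with 0.2, 2 and 20 U/ml, a ratio of 1.65. Ciita, the master activator of class II genes, was at 0.157 FPKM untreated and 0.353, 2.79 and 7.56 FPKM with 0.2, 2 and 20 U/ml, a ratio of 1.18. Of 13 class I heavy chains, 1 was higher, H2-M2, against 2.9% of all entries used, and the median ratio was 0.36. H2-K1, a classical class I gene, was at 543 FPKM untreated and 957, 955 and 1155 FPKM with 0.2, 2 and 20 U/ml, a ratio of 0.27.

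None of the 16 genes for class I peptide loading and the immunoproteasome passed the size rule, and their median ratio was 0.41. Over all entries used, 2.9% were higher and the median was 0.02, so the count of 0 is near that share. Psmb9, an immunoproteasome subunit, was at 143 FPKM untreated and 413, 585 and 808 FPKM with 0.2, 2 and 20 U/ml, a ratio of 0.46. Psmb10 was at 146 FPKM untreated and 579, 628 and 814 FPKM with 0.2, 2 and 20 U/ml, with most of its difference present at 0.2 U/ml. Tap1, which carries peptides into the endoplasmic reticulum, was at 27.7 FPKM untreated and 62.3, 183 and 325 FPKM with 0.2, 2 and 20 U/ml, a ratio of 0.83. Among members at least 2-fold higher at 20 U/ml than in untreated cells, a median of 58.6% of the difference was present at 2 U/ml in the loading list, against 37.0% for class II and 3.71% for the CXCR3 ligands.

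**Figure D3:**
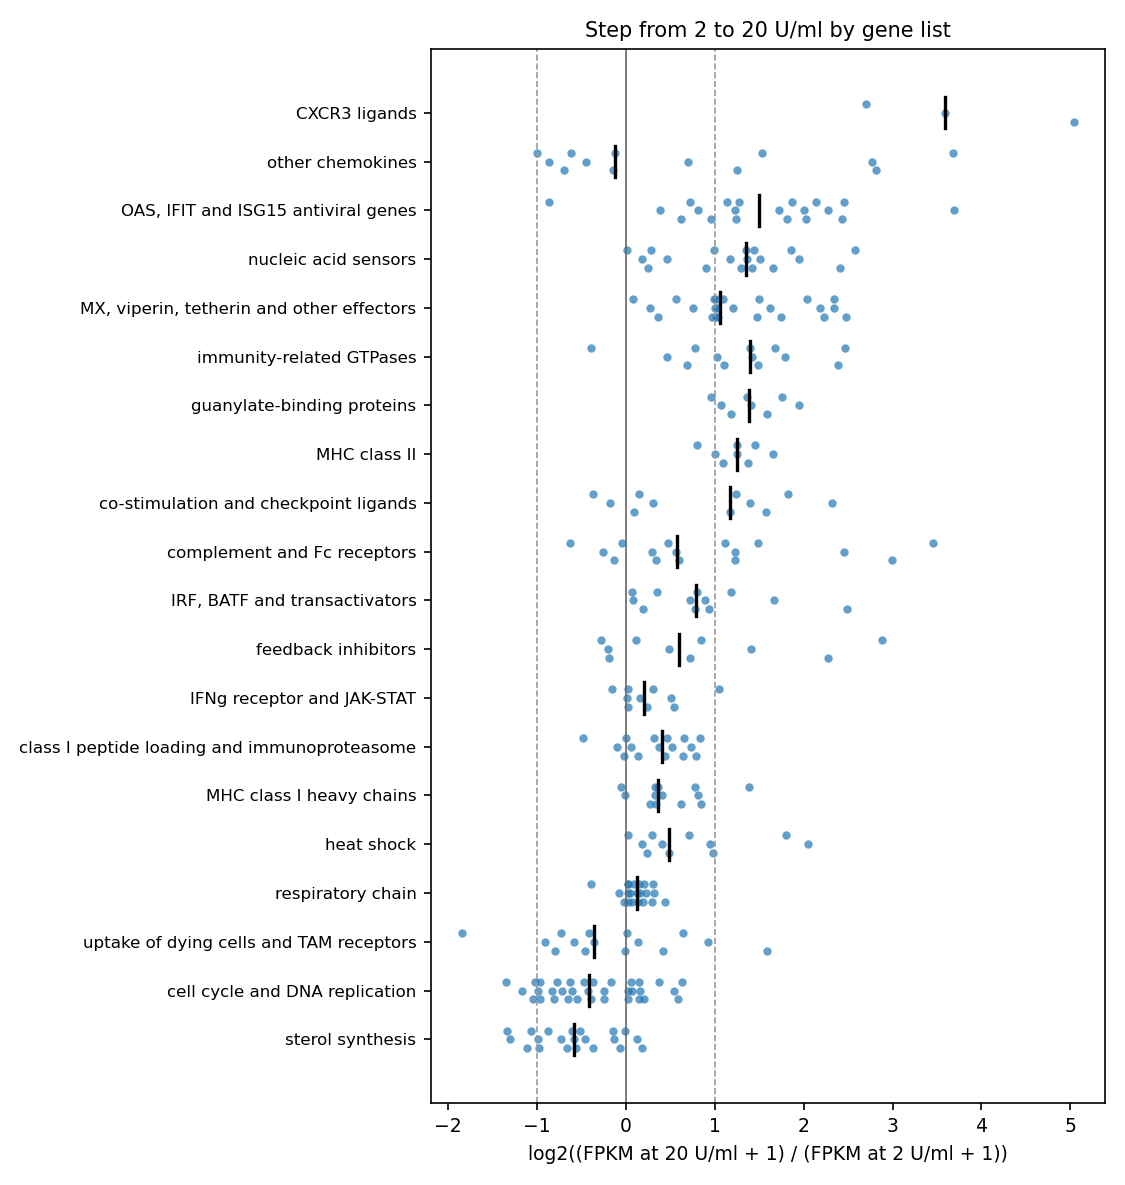
Step ratio from 2 to 20 U/ml (x, log2 of FPKM plus 1) by gene list (y). Dots are entries, black bars list medians and dashed lines the size rule of 1 in each direction, and the medians run from 3.59 for the CXCR3 ligands to -0.59 for sterol synthesis.

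Surface molecules that steer T cells were among the higher genes, with 6 of 11 past the size rule and a median ratio of 1.17. Cd40, the receptor through which T cells license macrophages, was at 2.17 FPKM untreated and 3.52, 10.5 and 56.3 FPKM with 0.2, 2 and 20 U/ml, a ratio of 2.31. Cd86, a co-stimulatory ligand of CD28, was at 4.30 FPKM untreated and 7.99, 15.1 and 56.1 FPKM with 0.2, 2 and 20 U/ml, a ratio of 1.82. Cd274, which encodes the checkpoint ligand PD-L1, was at 6.06 FPKM untreated and 10.8, 34.2 and 104 FPKM with 0.2, 2 and 20 U/ml, a ratio of 1.58.

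Of 23 cytokines and cytokine receptors, 7 were higher, with a median ratio of 0.64. Il12rb1, a chain of the IL-12 receptor, was at 0.458 FPKM untreated and 0.727, 2.55 and 22.7 FPKM with 0.2, 2 and 20 U/ml, a ratio of 2.74. Il27 and Tnfsf10, which encodes the death ligand TRAIL, had ratios of 1.77 and 2.15. Il18, which with IL-12 drives IFNγ production, was level through 2 U/ml at 13.4 FPKM untreated and 12.4, 13.4 and 33.5 FPKM with 0.2, 2 and 20 U/ml. The gene of its decoy, Il18bp, had a ratio of 1.62. Type I interferon genes were at or near 0, with Ifnb1 at 0.0493 FPKM at 2 U/ml and 0.5 at 20 U/ml, below the filter.

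Microbicidal metabolism gave 3 higher genes of 11. Acod1, which makes itaconate, was at 2.44 FPKM untreated and 5.45, 30.3 and 125 FPKM with 0.2, 2 and 20 U/ml, a ratio of 2.00. Nos2, the inducible nitric oxide synthase, was low in every group at 0.0921 FPKM untreated and 0.137, 0.547 and 4.88 FPKM with 0.2, 2 and 20 U/ml, a ratio of 1.93 that with a pseudocount of 5 FPKM was 0.83. Ass1, which resupplies arginine to Nos2, had a ratio of 1.57. Cybb, the catalytic chain of the phagocyte oxidase, had a ratio of -0.01.

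Serpina3g, a serine protease inhibitor whose promoter is printed above, was at 0.847 FPKM untreated and 1.88, 7.44 and 149.7 FPKM with 0.2, 2 and 20 U/ml, and its step ratio of 4.16 was the next largest after Cxcl9 among long single-gene entries. Its neighbour in the family, Serpina3f, had a ratio of 2.88. Ly6a, a surface antigen, was at 18.1 FPKM untreated and 40.8, 231 and 1678 FPKM with 0.2, 2 and 20 U/ml, a ratio of 2.85, and 3 of 4 Ly6 genes were higher. The exception, Ly6e, had a ratio of 0.44. Slfn1 alone of 7 Schlafen genes was higher, at 0.333 FPKM untreated and 0.617, 2.39 and 27.9 FPKM with 0.2, 2 and 20 U/ml.

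The receptor and its signalling chain stayed near level at the step, with 1 of 10 genes higher and a median ratio of 0.20. Ifngr1 was at 53.9 FPKM untreated and 41.6, 44.2 and 44.5 FPKM with 0.2, 2 and 20 U/ml, and the ratio of Jak1 was 0.02 and that of Jak2 0.50. Stat2 was at 11.5 FPKM untreated and 19.4, 43.5 and 90.8 FPKM with 0.2, 2 and 20 U/ml, a ratio of 1.05 that was under 1 with each other scaling tried, at 0.97, 0.99 and 0.94. Among transcription factors, 3 of 12 were higher, with a median of 0.79. Irf7, the amplifier of type I interferon responses, was at 17.2 FPKM untreated and 31.4, 74.3 and 422 FPKM with 0.2, 2 and 20 U/ml, a ratio of 2.49. Irf1, the early IFNγ target, was at 34.1 FPKM untreated and 89.1, 293 and 511 FPKM with 0.2, 2 and 20 U/ml, a ratio of 0.80, and 54.4% of its difference was present at 2 U/ml against 14.1% for Irf7.

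Of 10 feedback inhibitors, 3 were higher. Socs1, the inhibitor of JAK kinases whose promoter is printed above, was at 2.06 FPKM untreated and 4.55, 17.9 and 138 FPKM with 0.2, 2 and 20 U/ml, a ratio of 2.88. Usp18, which removes ISG15 and blocks the type I receptor, was at 7.81 FPKM untreated and 12.2, 20.9 and 105 FPKM with 0.2, 2 and 20 U/ml, a ratio of 2.27. Socs3 was at 1.06 FPKM untreated and 1.26, 3.02 and 9.67 FPKM with 0.2, 2 and 20 U/ml, a ratio of 1.41. For Socs1, 11.6% of the difference was present at 2 U/ml, a smaller share than for Irf1.

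Complement and Fc receptor genes gave 7 higher of 16, with a median ratio of 0.58. The merged entry of C2, Cfb and Gm20547 was at 1.85 FPKM untreated and 2.18, 4.49 and 59.04 FPKM with 0.2, 2 and 20 U/ml, a ratio of 3.45. C3, the central complement protein, was at 8.35 FPKM untreated and 12.3, 23.3 and 192 FPKM with 0.2, 2 and 20 U/ml, a ratio of 3.00. Ch25h, which makes 25-hydroxycholesterol, was at 2.66 FPKM untreated and 3.07, 6.95 and 72.97 FPKM with 0.2, 2 and 20 U/ml, a ratio of 3.22. Other long single-gene entries among the 15 with the largest ratios were Cnn3, an actin-binding calponin, at 21.7 FPKM at 2 U/ml and 166 at 20 U/ml, and Upp1, uridine phosphorylase, at 3.32 FPKM at 2 U/ml and 28.9 at 20 U/ml.

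Over the 754 entries at least 2-fold higher at 20 U/ml than in untreated cells, 6.51% of those used, a median of 30.2% of the FPKM difference was present at 2 U/ml. The quartiles were 19.4% and 43.4%. Under 10% was present for 79 entries, and over 50% for 118. The step and these percentages share the value at 2 U/ml, so an error in it moves both.

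**Figure D4:**
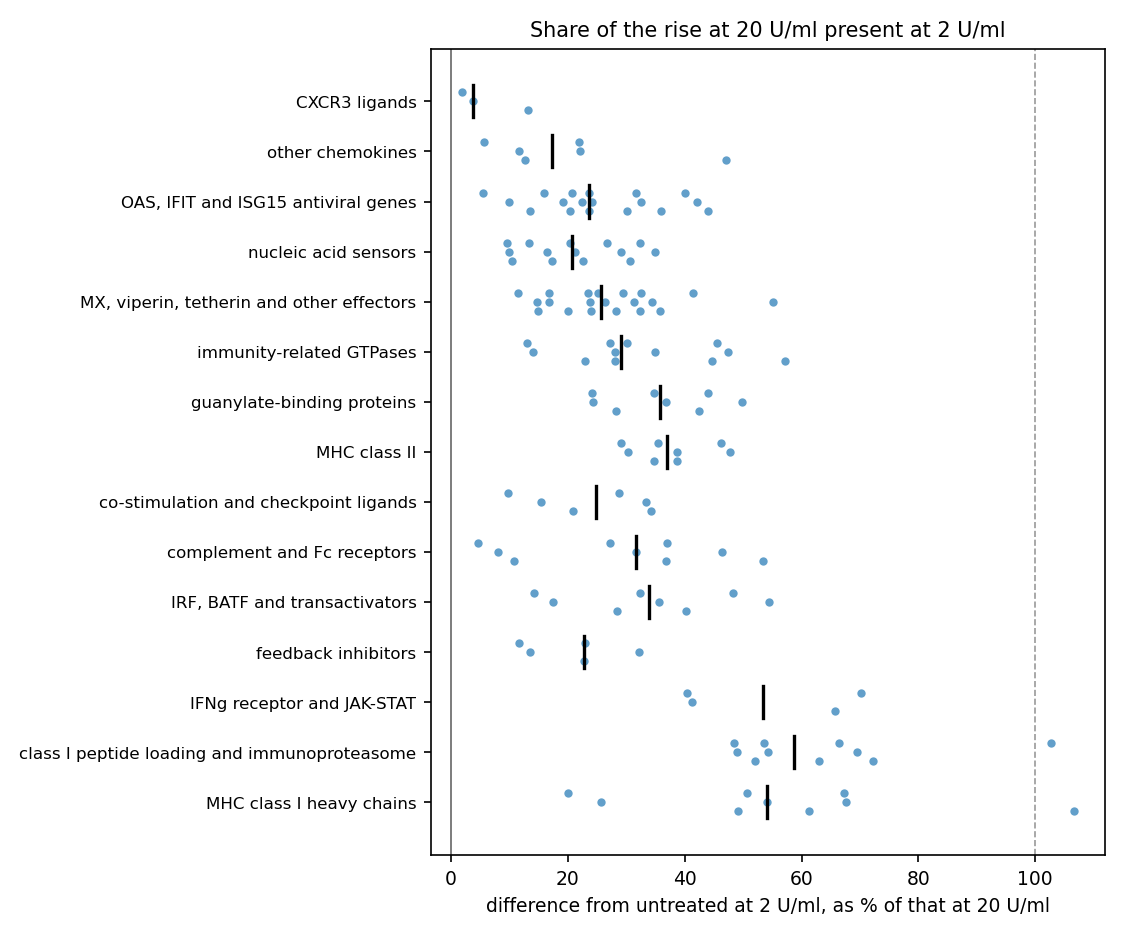
Percent of the FPKM difference between untreated cells and 20 U/ml that was present at 2 U/ml (x) for list members at least 2-fold higher at 20 U/ml (dots), with list medians as black bars. Class I loading genes lie to the right, with a median of 58.6%, and CXCR3 ligands to the left, with 3.71%.

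Genes near their untreated level until the high dose were sought as entries higher at the step and at 20 U/ml against untreated cells, but within 0.5 in log2 of untreated cells at 2 U/ml. This high-dose class held 69 entries, or 0.596%, of which 55 were long single-gene entries, 10 merged and 4 short. Over all entries used the counts were 10692, 695 and 195. The class rests on the pseudocount: with 5 FPKM added in place of 1 it held 43 entries, and 18 of them were among the 69. Of the other higher entries, 146 were already at least 2-fold above untreated cells at 2 U/ml, a level that 2.5% of all entries used had reached. In 200 of the 336, the 4 values were in the order of the doses. The last step of that order was fixed by how the 336 were chosen, and the share over all entries was not counted. Of the 69, 9 were also at least 2-fold above untreated cells at 0.2 U/ml, which 5.23% of all entries used were.

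Cst7, which encodes the cathepsin inhibitor cystatin F, had the largest step ratio among the long single-gene entries of the class, at 6.45 FPKM untreated and 5.45, 8.31 and 42.9 FPKM with 0.2, 2 and 20 U/ml, a step ratio of 2.24. The inducible heat shock genes Hspa1a and Hspa1b were both in it, with Hspa1b at 0.398 FPKM untreated and 0.325, 0.742 and 6.22 FPKM with 0.2, 2 and 20 U/ml. They are near-identical copies on chromosome 17, and their reads may be split between them. They were the 2 higher genes among 11 of the heat shock list, with Hspa8 at a ratio of 0.98. Aldh1b1, a mitochondrial aldehyde dehydrogenase, was at 5.15 FPKM untreated and 5.77, 7.42 and 25.8 FPKM with 0.2, 2 and 20 U/ml, a ratio of 1.67. Lgals9, which encodes galectin-9, was at 78.4 FPKM untreated and 67.5, 91.99 and 218 FPKM with 0.2, 2 and 20 U/ml, and Il18 belonged to the class as well.

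Among the 12 leading long single-gene entries of the class, Gm20481, Gm13822 and Gm26902 overlap a gene that was itself higher. Lrrc16a and Pydc3, also among the 12, had no single position in the annotation used, so their overlap was not looked at. Gm20481, on chromosome 17 from 34969912 to 34972136 on the plus strand, lies inside Hspa1a, from 34969190 to 34972156 on the minus strand. Gm13822, an antisense transcript on chromosome 5 from 114917318 to 114923277, overlaps the first bases of Oasl1, which starts at 114923240. Gm26902, on chromosome 19 from 34474808 to 34481546, overlaps Ch25h, from 34473778 to 34475164 on the other strand. Strand use in the counting is not stated, so reads in the shared bases cannot be told apart from those of the coding genes. This covers all of Gm20481, while most of the span of Gm13822 and of Gm26902 lies outside the coding gene.

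The opposite pattern, at least 2-fold above untreated cells at 2 and 20 U/ml with a step under 0.5 in size, held 42 entries, or 0.363%. Slc15a3, a lysosomal peptide and histidine transporter, was at 76.4 FPKM untreated and 128, 223 and 225 FPKM with 0.2, 2 and 20 U/ml. Itgb7, an integrin beta chain, was at 20.2 FPKM untreated and 30.7, 60.98 and 66.8 FPKM with 0.2, 2 and 20 U/ml. Erap1, which trims peptides for class I, was at 8.21 FPKM untreated and 13.5, 26.2 and 25.7 FPKM with 0.2, 2 and 20 U/ml, and Tapbpl, a tapasin-related peptide editor, at 7.56 FPKM untreated and 18.9, 44.8 and 61.2 FPKM with 0.2, 2 and 20 U/ml. The 4 loading genes in this class were Erap1, Tapbpl, Psmb9 and Psmb10.

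The ISRE letters were found in 37 of 216 matched promoters of the higher entries, or 17.1%, against 2.75% of the 9786 promoters of single-gene entries used and 2.98% of all 32851 promoters of the table. GAS letters were in 10.2% of the higher entries' promoters and 5.96% of those used. The 216 promoters matched 175 of 305 higher single genes. A gene can have several promoters that share a site, as those of Apol9b and Rnase6 do, and each was counted. In entries higher at the step and already 2-fold higher at 2 U/ml, 28 of 99 promoters held ISRE letters, or 28.3%. In the high-dose class it was 3 of 47, or 6.38%, and in the class level from 2 to 20 U/ml 1 of 27. Among the 77 promoters of entries lower at the step, 0 held ISRE letters in this window. By list, ISRE letters were in 10 of 18 OAS, IFIT and ISG15 promoters and 4 of 5 of the guanylate-binding proteins. They were in 0 of 14 of the class I loading genes. At the 2.75% of promoters of entries used, few of 14 or of 77 would hold them.

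Gas6, the ligand of the TAM receptors that bridges them to dying cells, had the most negative ratio of any list member. On chromosome 8 from 13465374 to 13494490, it was at 171 FPKM untreated and 123, 72.2 and 19.3 FPKM with 0.2, 2 and 20 U/ml, a ratio of -1.85. Each level was lower than the one before it, and 65.1% of the difference was present at 2 U/ml. Lyzl4, a lysozyme-like gene, and Tnni2, a troponin subunit, were also among the 10 smallest ratios, at -1.62 and -1.55. The smallest of those 10 was Gm11027 at -2.12, at 6.21 FPKM at 2 U/ml and 0.654 at 20 U/ml. Of the 15 genes for uptake of dying cells, Gas6 was the 1 lower and Timd4, a phosphatidylserine receptor, the 1 higher.

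Of 14 alternative activation and scavenger receptor genes, 3 were lower and 1 was higher. Fabp4, a fatty acid carrier, was at 77.6 FPKM untreated and 82.8, 42.5 and 15.6 FPKM with 0.2, 2 and 20 U/ml, a ratio of -1.39. Mrc1, the mannose receptor, was at 88.5 FPKM untreated and 81.3, 53.9 and 23.96 FPKM with 0.2, 2 and 20 U/ml, a ratio of -1.14. Cbr2 had a ratio of -1.03, and the scavenger receptor Marco, the higher one, a ratio of 1.24. Cx3cr1, the fractalkine receptor, was at 21.3 FPKM untreated and 29.8, 15.5 and 5.16 FPKM with 0.2, 2 and 20 U/ml, a ratio of -1.42. Igfbp4, which binds insulin-like growth factors, was high and level through 2 U/ml, at 199 FPKM untreated and 204, 232 and 78.9 FPKM with 0.2, 2 and 20 U/ml, a ratio of -1.54. Ifi27, chosen after its values were seen, was lower at 20 U/ml although named as an interferon-induced gene, at 284 FPKM untreated and 333, 155 and 52.6 FPKM with 0.2, 2 and 20 U/ml.

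**Figure D5:**
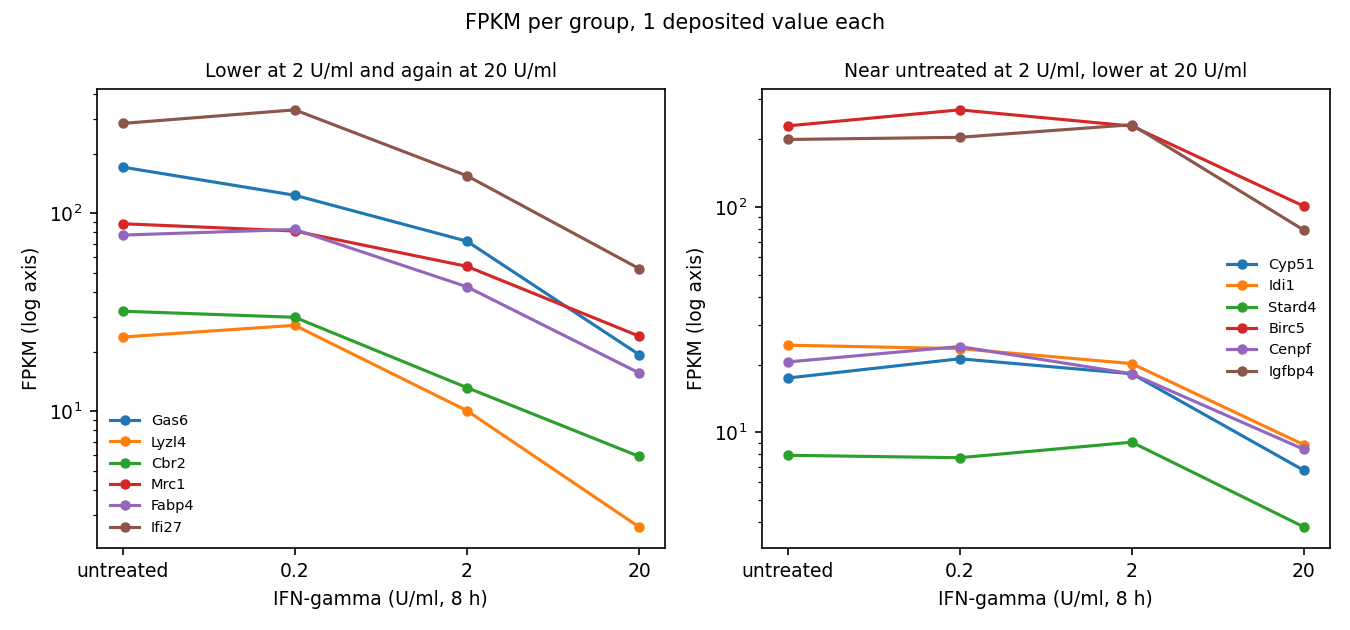
FPKM (y, log axis) in untreated cells and at 0.2, 2 and 20 U/ml (x), 1 deposited value per group. The left panel shows genes lower at 2 U/ml and lower again at 20 U/ml, such as Gas6, and the right panel genes near the untreated level at 2 U/ml and lower at 20 U/ml, such as Cyp51, Birc5 and Igfbp4.

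Sterol synthesis genes gave 4 lower of 21, 0 higher and a median ratio of -0.59. Cyp51, lanosterol demethylase, was at 17.4 FPKM untreated and 21.2, 18.2 and 6.79 FPKM with 0.2, 2 and 20 U/ml, a ratio of -1.30. Idi1 and Stard4 had ratios of -1.11 and -1.06. At 2 U/ml Cyp51, Idi1 and Stard4 were near the untreated level.

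Cell division and DNA replication genes gave 4 lower of 34, 0 higher and a median ratio of -0.41. Mki67, a proliferation marker, was at 35.4 FPKM untreated and 34.9, 25.5 and 9.39 FPKM with 0.2, 2 and 20 U/ml, a ratio of -1.35. Birc5, which encodes survivin, was at 229 FPKM untreated and 269, 228 and 101 FPKM with 0.2, 2 and 20 U/ml, a ratio of -1.17. Ccnb2 and Cenpf, of mitosis, had ratios of -1.05 and -1.03. Of the 34 ratios, 22 were below 0 and 12 above it. The replication genes Mcm2 and Pcna, picked outside the naming rule, were among those above, at 0.15 and 0.59.

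Over the 340 entries at least 2-fold lower at 20 U/ml than in untreated cells, 2.94% of those used, a median of 53.4% of the difference was present at 2 U/ml, with quartiles of 34.4% and 67.3%. Over 50% was present for 193 and under 10% for 31. Among the few list members lower by that measure, the median was 68.8% for 4 of uptake of dying cells, 21.4% for 6 of sterol synthesis and 15.5% for 6 of cell division.

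Some entries could not be placed. Left out for a 0 were 272 entries, of which 249 were short RNAs. Of these 272, 98 were listed at 0 at 2 U/ml and above 0 at 20 U/ml, and 71 the reverse. Lyz2, lysozyme, was listed at 0 in untreated cells and at 0.2 and 2 U/ml and at 7449 FPKM at 20 U/ml, and Fth1, ferritin heavy chain, likewise at 12841. Since macrophages use both, a 0 can be a failed estimate, and no ratio is given for them. Among reference genes 1 of 14 was past the size rule, Actb, at 16813 FPKM untreated and 12629, 11508 and 26258 FPKM with 0.2, 2 and 20 U/ml, a ratio of 1.19 that with quantile normalization was 0.38.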

How the data were processed

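Per the submitters' processing notes, TopHat2 2.1.1, Cufflinks 2.1.1, Cuffdiff 2.1.1 and the build mm10 were used. The deposited table gives 1 FPKM value for each group, per the file headers. The sources used here do not say whether it combines the 3 libraries. No unit stands in the untreated header, which was taken as FPKM. A deposited comparison that names no dose was not used, and limma on values per library could not be run.

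Ratios were computed on log2(FPKM + 1) with Python 3.11.15, pandas 2.3.3 and numpy 2.4.6, and checked on simulated data. Of 11852 entries with a mean of at least 1 FPKM, 272 with a 0 were left out. Depth is unknown: of 3328 entries above 0 and under 0.1 FPKM at both doses, 79 shared the most common ratio, so no steps of whole reads were read.

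Members, lists and rules were chosen with earlier results of these data known. Named were the 15 largest and 10 smallest step ratios among long single-gene entries reaching 2 FPKM in 1 of the doses, up to 4 members of each of 42 lists, lists of up to 14 entries, 17 fixed genes and the 12 leading entries of the high-dose class. Positions are from GENCODE M21 (GRCm38), and promoters from RefSeq. Some genes taken by the rule are left out of the text. Other genes given by value were picked outside it, among them Ddx58, Zbp1, Ifit1, Ifit2, Ifit3, Il18, Mcm2 and Pcna. The same holds for Psmb9, Psmb10, Erap1, Tapbpl, Slc15a3 and Itgb7. These genes were not among the 174 named entries of the checks below. Other pseudocounts, scalings, filters and bounds were tried.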

Additional observations from a re-analysis of the deposited data

How the results depend on the processing

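Among the 174 named entries and the list medians, no ratio past the size rule changed sign with the other pseudocounts and scalings. The signs of other entries were not compared. The median step ratio of all entries was -0.05 with upper-quartile scaling and -0.03 with median centring and with quantile normalization, against 0.02 as reported. With a pseudocount of 5 FPKM, 209 entries were higher and 50 lower, the high-dose class held 43 and the level class 23, and the median ratio of the co-stimulation list was 0.97. With a pseudocount of 0.1, 248 were lower. With a mean of at least 5 FPKM, the high-dose class held 34. With entries that have a 0 kept, 203 were lower and the high-dose class held 140. With a bound of 0.25 in place of 0.5, the high-dose class held 28 and the level class 21. With upper-quartile scaling, the median of the MX, viperin and tetherin list was 0.99. The cause was not tested, beyond the entries or scale that each setting changes. Of 174 named entries, 31 that were past the size rule were under it with a pseudocount of 5. A filter over untreated cells, 2 and 20 U/ml, chosen after seeing the data, gave 346 higher and 130 lower. Leaving out entries already 2-fold higher at 0.2 U/ml, also chosen after seeing the data, gave a high-dose class of 60.

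No paired analysis was possible because the table holds 1 value per group with no replicate number, and leaving out replicates could not be run for the same reason. No difference can be set against the spread between libraries. Depth is unknown, so the precision of low values is unknown.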

Other observations

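Glycolysis genes gave 3 higher of 20 at the step, with a median ratio of 0.47. Pfkp, a phosphofructokinase, was at 50.7 FPKM untreated and 52.7, 74.7 and 180.1 FPKM with 0.2, 2 and 20 U/ml, a ratio of 1.26. Hk2, a hexokinase, and Slc2a1, which encodes the glucose transporter GLUT1, both had ratios of 1.02, and both were under 1 with each other scaling tried. None of 21 respiratory chain genes passed the size rule, and their median was 0.13. Of 24 cell death and inflammasome genes, 4 were higher. Daxx and Xaf1, which promote apoptosis, had ratios of 1.54 and 1.53, Nod1, a sensor of bacterial cell walls, 1.39, and Mlkl, the executor of necroptosis, 1.18. Of 8 interferon-inducible PARP entries, 3 were higher.

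Short RNAs were often higher at the lowest dose, whatever their step. At least 2-fold above untreated cells at 0.2 U/ml were 74 of all 195 short RNAs used, 20 of the 37 higher at the step and 10 of the 26 lower at it. Vaultrc5, a vault RNA, was at 16.1 FPKM untreated and 305, 33.04 and 769 FPKM with 0.2, 2 and 20 U/ml. Gm24407, chosen after its values were seen, was at 60.4 FPKM untreated and 794, 75.8 and 712 FPKM with 0.2, 2 and 20 U/ml. Both were high at 0.2 and 20 U/ml and low in the other groups, as were Lars2 and Rmrp among the longer genes. In the high-dose class, 9 of 69 entries were at least 2-fold higher at 0.2 U/ml, 3 of them among the 55 long single-gene entries.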
